A study of Rattus norvegicus with 18 samples.

Results

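The glucose genes described here are 9 genes of hepatic glucose sensing, glycolysis and gluconeogenesis: Slc2a2, Gckr, Pfkfb1, Pklr, Pc, Pck1, Fbp1, Slc37a4 and G6pc1. They were chosen by their symbols in the annotation of the array platform, and each was read by its brightest probe set, by the mean over 18 arrays. All 9 were measured, among 14275 genes in all. Liver RNA came from adult male Sprague Dawley rats in 3 groups of 6 Affymetrix arrays each. The HFD+PE group ate a high fat diet and received an extract of pomegranate skin (150 mg/kg/day), the HFD group ate the high fat diet without it, and the chow group ate chow. Feeding lasted 8 weeks in all groups, every animal was fasted overnight before the liver was taken, and the sources used here do not give the composition of the diets or of the extract. In each group 1 pair of arrays was so alike that it was averaged and counted as 1 animal (HFD+PE 3 and 4, HFD 1 and 2, chow 3 and 4), so n = 5 animals per group throughout. The likeness was judged by probe sets over 2 log2 units apart; by the SD of all differences the HFD+PE pair (0.260) was no closer than HFD 3 and 5 (0.260), so its averaging is the least certain.

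The fasted liver releases glucose, and the fed liver takes it up. The steps that set the direction are those where glycolysis and gluconeogenesis use different enzymes, and insulin, glucagon and glucocorticoids set the transcription of many of these enzymes. GLUT2, encoded by Slc2a2, carries glucose across the hepatocyte membrane in either direction, and Gckr encodes a regulatory protein that restrains glucose phosphorylation when glucose is low. Pklr encodes the liver pyruvate kinase that ends glycolysis, and Pck1 and G6pc1 encode enzymes of the first and the last part of gluconeogenesis that are well known as hormone targets.

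Promoter windows of 300 bases, 250 before and 50 after the annotated start, were available from RefSeq on the GRCr8 build for 8 of the 9 genes, with 2 windows for Slc37a4. The 3 windows shown are those of Pck1, whose level varied least between animals, and of G6pc1 and Pklr, which were among the 3 that varied most. Capitals mark the matched motifs.
Pck1 (chr3:182348322-182348621, plus strand): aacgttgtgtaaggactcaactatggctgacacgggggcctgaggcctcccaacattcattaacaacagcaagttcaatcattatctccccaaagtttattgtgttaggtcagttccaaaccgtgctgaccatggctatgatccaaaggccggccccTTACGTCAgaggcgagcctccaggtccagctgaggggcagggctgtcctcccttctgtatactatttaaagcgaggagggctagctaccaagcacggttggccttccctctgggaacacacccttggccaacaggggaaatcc
G6pc1 (chr10:86807409-86807708, plus strand): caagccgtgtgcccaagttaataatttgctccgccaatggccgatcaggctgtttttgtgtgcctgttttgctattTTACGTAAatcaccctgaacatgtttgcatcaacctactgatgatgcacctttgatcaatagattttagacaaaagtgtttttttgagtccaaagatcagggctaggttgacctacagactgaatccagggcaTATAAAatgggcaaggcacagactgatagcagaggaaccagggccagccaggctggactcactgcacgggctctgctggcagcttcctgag
Pklr (chr2:176841014-176841313, plus strand): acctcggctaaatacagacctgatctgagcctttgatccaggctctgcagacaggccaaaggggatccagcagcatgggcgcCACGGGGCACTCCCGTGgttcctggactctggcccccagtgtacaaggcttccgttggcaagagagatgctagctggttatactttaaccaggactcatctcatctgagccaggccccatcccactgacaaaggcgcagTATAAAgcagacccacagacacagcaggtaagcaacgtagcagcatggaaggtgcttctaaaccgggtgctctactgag

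In the Pck1 window the capitals mark TTACGTCA, the known variant of the cAMP response element of this gene, whose first base lies at position -93 from the start; 0.807% of 33469 RefSeq promoter windows held this string on either strand. In the G6pc1 window they mark TTACGTAA at -174, held by 0.120% of windows, and a TATA box, TATAAA, at -41. In the Pklr window they mark the spaced pair CACGGGNNNNNCCCGTG at -168, which is in 1 of 33469 windows, and TATAAA at -29. TATAAA was in 14.2% of windows. TTACGTAA and the spaced pair were added to the search after these sequences had been read, so their rarity is a description only. TGTTCT, a part of the glucocorticoid response element, matched in Slc2a2 at -153 and in Gckr at -167, and in 20.7% of all windows. No searched motif was in the windows of Fbp1, Pfkfb1 or Slc37a4. The E-box CACGTG was in 0 of the 9 windows and in 6.42% of all windows. The full cAMP response element TGACGTCA was in 0 of 9 and in 1.83% of all. The forkhead motif GTAAACA was in 0 of 9 and in 3.78% of all. The HNF4 motif CAAAGTCCA was in 0 of 9 and in 0.391% of all. None of the matched strings overlapped another.

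The tissue label was checked against its markers. Of 10 hepatocyte markers, 9 were measured, and their mean level was between 13.5 and 13.6 in HFD+PE livers, between 13.4 and 13.6 in HFD livers and between 13.5 and 13.6 in chow livers, on the deposited log2 scale. Of the lists for other cells, the mean of 8 macrophage markers was 7.05 to 8.04 in HFD+PE livers, 7.51 to 8.36 in HFD livers and 8.08 to 9.10 in chow livers, so HFD+PE lay wholly below chow. The mean of 7 pericentral hepatocyte markers was 9.84 to 10.3 in HFD+PE livers, 9.68 to 9.87 in HFD livers and 9.34 to 9.78 in chow livers, so here HFD+PE lay wholly above chow. The part of either list in the results below was not tested, except where a relation is given. In bulk liver, fewer cells of a type and less RNA per cell cannot be told apart. The arrays also fell into sets by the mean of 10 hybridization control probe sets. It was high in 5 arrays (HFD+PE 1 and 3, chow 1, 2 and 3) and low in 13, which held every HFD array. High and low controls refer to this mean throughout. The control bioB, read apart, did not follow it. In the high set its level was 9.67 in chow 1 but 5.88 to 7 in the other arrays. In the low set it was 7.95 to 8.55, so the high set was not uniform.

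Across the 9 genes, no difference between diet groups passed limma's test at an adjusted p of 0.05. The feature that set these genes apart from each other was how far animals of the same diet differed: from nearly nothing for Pck1 to more than 2 log2 units for Pfkfb1 in HFD+PE livers. The count of members that passed was 0 of 9 in HFD against chow, 0 of 9 in HFD+PE against HFD and 0 of 9 in HFD+PE against chow; over all 14275 genes the percentage that passed was 0 in each comparison, so these 9 did not differ from the background in this respect. With unadjusted limma p under 0.05 there was 1 member in HFD against chow, Slc2a2, against 7.67% of all genes; 0 in HFD+PE against HFD, against 2.7%; and 0 in HFD+PE against chow, against 11.2%. The groups did not overlap for 0 of 9 members in any comparison, against 0.525% of all genes in HFD against chow, 0.133% in HFD+PE against HFD and 1.44% in HFD+PE against chow. The median difference of the 9 was 0.02 in HFD against chow, -0.07 in HFD+PE against HFD and 0.04 in HFD+PE against chow, beside medians over all genes of 0, 0 and 0.01. In the moderated F test over the 3 groups the smallest adjusted p among the members was 0.708, for Pc.

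**Figure D1:**
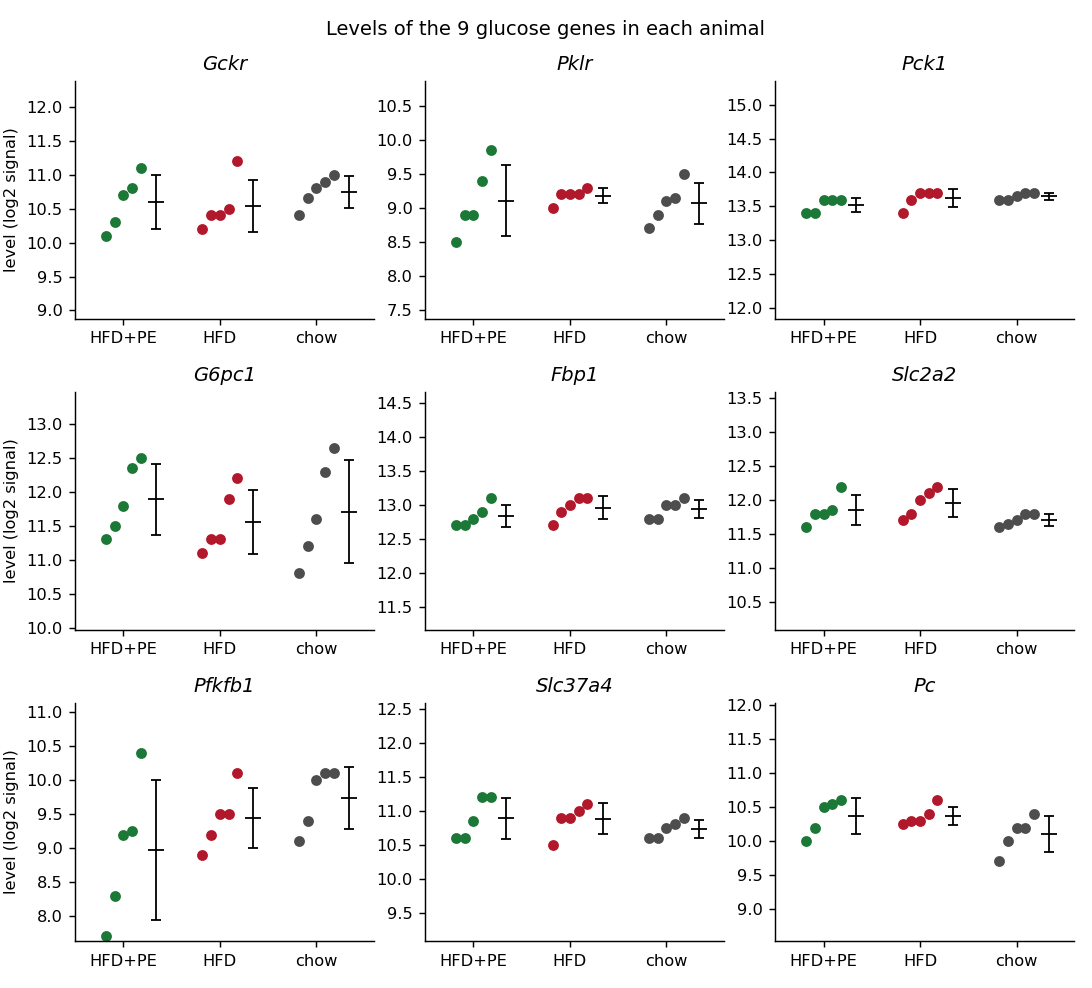
Level of each of the 9 glucose genes in every animal (points, log2 signal, n = 5 animals per group) with the group mean and SD (bars) for HFD+PE, HFD and chow, on axes of equal height. The groups overlap in every panel, and the spread is widest for Pfkfb1 in HFD+PE livers and narrowest for Pck1.

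Slc2a2, the glucose transporter of the hepatocyte, was the member with the smallest unadjusted p. Its level was 11.8, 12.2, 11.85, 11.8 and 11.6 in HFD+PE livers, 11.7, 11.8, 12.2, 12.0 and 12.1 in HFD livers, and 11.7, 11.6, 11.65, 11.8 and 11.8 in chow livers. Of the HFD animals 4 of 5 were above the chow mean and the lowest were inside the chow range, while HFD+PE animals spanned both other groups. The means were 11.85 ± 0.22 in HFD+PE, 11.96 ± 0.21 in HFD and 11.71 ± 0.09 in chow (SD, n = 5 each). HFD stood 0.25 above chow (SE 0.11, 95% interval 0.01 to 0.49), or 1.19-fold. The limma p was 0.0388 before and 0.623 after adjustment, and the exact permutation test of this difference gave a p of 0.0714, where 0.00794 is the smallest that 5 against 5 animals allow. The exact p was 0.0238 without HFD 1 and 2 and 0.0397 without HFD 3, the lowest 2 animals of the HFD group. Exact p values given here and below for a left-out animal are unadjusted. They were named because they fell under 0.05 when each animal was left out in turn, so they are a description only. The difference was 0.315 without HFD 1 and 2, and 0.19 without HFD 4, the highest of the HFD group. HFD+PE differed from HFD by -0.11 (95% interval -0.35 to 0.13) and from chow by 0.14 (-0.10 to 0.38).

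Gckr, the inhibitory regulator of glucose phosphorylation, showed overlapping groups. The level ran over 10.1 to 11.1 with a median of 10.7 in HFD+PE livers, over 10.2 to 11.2 with a median of 10.4 in HFD livers, and over 10.4 to 11.0 with a median of 10.8 in chow livers. The highest animal of all was in the HFD group and the lowest in the HFD+PE group. The differences were -0.21 for HFD against chow (95% interval -0.62 to 0.20), 0.06 for HFD+PE against HFD (-0.35 to 0.47) and -0.15 for HFD+PE against chow (-0.56 to 0.26), all short of the threshold. The difference for HFD against chow was -0.375 without HFD 1 and 2, the highest animal (exact permutation p 0.0476), and -0.125 without HFD 4, the lowest of its group. That for HFD+PE against chow was -0.275 without HFD+PE 3 and 4 and -0.025 without HFD+PE 2.

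Pfkfb1 encodes the liver form of the bifunctional enzyme that makes and removes the fructose bisphosphate signal by which insulin and glucagon switch the liver between glycolysis and gluconeogenesis. Its level was 10.4, 9.2, 9.25, 8.3 and 7.7 in HFD+PE livers, 10.1, 9.2, 8.9, 9.5 and 9.5 in HFD livers, and 10.1, 9.4, 10, 9.1 and 10.1 in chow livers. The highest and the lowest of all 15 values were both in the HFD+PE group, 2.7 log2 units apart. The means were 8.97 ± 1.03 in HFD+PE, 9.44 ± 0.44 in HFD and 9.74 ± 0.46 in chow (SD, n = 5 each). HFD+PE was 0.59 times chow, a difference of -0.77 (SE 0.38, 95% interval -1.57 to 0.03, limma adjusted p 0.475, exact permutation p 0.206), and 4 of 5 HFD+PE animals were below the chow mean. This was the widest difference among the 27 of the 9 genes, and it did not pass. It turned on single animals: without HFD+PE 1, the animal at 10.4, the difference was -1.13 with a limma adjusted p of 0.165 and an exact permutation p of 0.0317, and without HFD+PE 6, the animal at 7.7, it was -0.45 with a limma adjusted p of 0.758. HFD+PE 1 is 1 of the arrays with high hybridization controls; among the arrays with low ones the difference was -1.17 with a limma adjusted p of 0.414. The other differences of Pfkfb1 were -0.47 for HFD+PE against HFD (-1.27 to 0.33) and -0.30 for HFD against chow (-1.10 to 0.50). The first was -0.83 without HFD+PE 1 and -0.15 without HFD+PE 6, and the second was -0.465 without HFD 1 and 2 and -0.165 without HFD 4.

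Pklr, the liver pyruvate kinase, had 8.5, 8.9, 9.85, 9.4 and 8.9 in HFD+PE livers, 9.3, 9.0, 9.2, 9.2 and 9.2 in HFD livers, and 8.9, 8.7, 9.15, 9.5 and 9.1 in chow livers. HFD animals lay close together inside the range of the other groups, and the HFD+PE group held both the lowest and the highest value. The differences were 0.11 for HFD against chow (95% interval -0.31 to 0.53), -0.07 for HFD+PE against HFD (-0.49 to 0.35) and 0.04 for HFD+PE against chow (-0.38 to 0.46). Another probe set of Pklr followed the brightest (Pearson r 0.906 over deviations of 15 animals from their group means, a description), with differences of 0.05, 0.07 and 0.12 in the same order of comparisons, so the sign of HFD+PE against HFD was not the same in both. Direction also depended on the arrays used: among the arrays with low hybridization controls the differences of Pklr were -0.09, 0.07 and -0.02, so no direction is given for this gene.

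**Figure D2:**
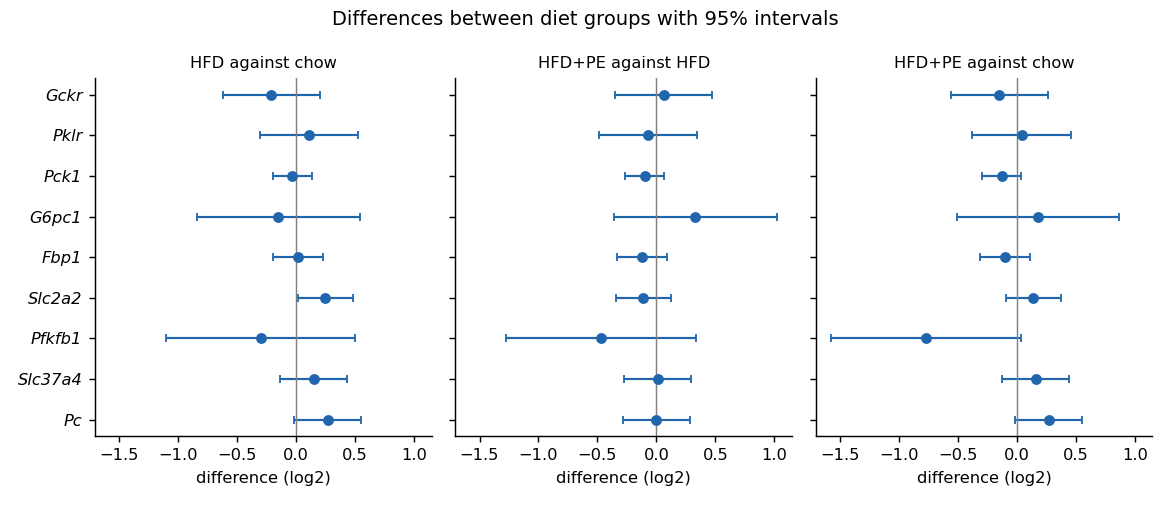
Difference between diet groups for each of the 9 genes (points, log2) with the 95% interval of the limma fit (bars), for HFD minus chow, HFD+PE minus HFD and HFD+PE minus chow, n = 5 animals per group. Intervals reach past 0 on both sides except for Slc2a2 in HFD against chow (0.01 to 0.49), and are widest for Pfkfb1 and G6pc1.

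Pc encodes pyruvate carboxylase, which makes oxaloacetate from pyruvate in mitochondria. Its level was 10, 10.6, 10.55, 10.5 and 10.2 in HFD+PE livers, 10.25, 10.3, 10.3, 10.4 and 10.6 in HFD livers, and 10.4, 9.7, 10, 10.2 and 10.2 in chow livers. All 5 HFD animals were above the chow mean, but the highest chow animal lay inside the HFD range. The means were 10.37 ± 0.26 in HFD+PE, 10.37 ± 0.14 in HFD and 10.10 ± 0.26 in chow (SD, n = 5 each). HFD and HFD+PE each stood 0.27 above chow (SE 0.13, 95% interval -0.01 to 0.55 for each), with limma adjusted p of 0.667 for HFD and 0.479 for HFD+PE and exact permutation p of 0.0873 for HFD and 0.183 for HFD+PE. These comparisons share the chow animals. HFD+PE and HFD differed by 0.00 (-0.28 to 0.28). Without chow 1, the highest chow animal, the difference for HFD against chow was 0.345 and the exact permutation p was 0.00794, the smallest that 5 against 4 animals allow. Chow 1 was the only chow animal inside the HFD range, so leaving it out separates the groups and fixes this p in advance. The separation also rests on averaging HFD 1 and 2, since array HFD 2 alone read 10.2, as did chow 5 and 6. Without chow 2, the lowest chow animal, HFD and HFD+PE each stood 0.17 above chow. With the hybridization control set as a covariate the difference was 0.15 for HFD against chow and 0.22 for HFD+PE against chow.

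Pck1, the cytosolic enzyme that turns oxaloacetate into phosphoenolpyruvate, varied least. Its level was 13.6, 13.6, 13.4, 13.6 and 13.4 in HFD+PE livers, 13.7, 13.7, 13.4, 13.7 and 13.6 in HFD livers, and 13.7, 13.6, 13.65, 13.6 and 13.7 in chow livers. All 15 animals lay within 0.3 log2 units, and the deposited values are rounded to steps of 0.1. The means were 13.52 ± 0.11 in HFD+PE, 13.62 ± 0.13 in HFD and 13.65 ± 0.05 in chow (SD, n = 5 each). All 5 HFD+PE animals were below the chow mean, by a difference of -0.13 (SE 0.08, limma adjusted p 0.594, exact permutation p 0.0794). The 95% interval of that difference is 0.82 to 1.02 as a fold, and that of HFD against chow is 0.87 to 1.10, so among the 9 genes Pck1 had the narrowest bounds. The exact p fell below 0.05 when HFD+PE 1, 2 or 5, the animals at 13.6, was left out in turn (0.0476 each), with a difference of -0.15. Without HFD+PE 3 and 4, or without HFD+PE 6, the animals at 13.4, the difference was -0.10. The highest value on any array was 15.

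Fbp1 encodes fructose bisphosphatase, the gluconeogenic counterpart of phosphofructokinase. Its level ran over 12.7 to 13.1 with a median of 12.8 in HFD+PE livers, over 12.7 to 13.1 with a median of 13.0 in HFD livers, and over 12.8 to 13.1 with a median of 13.0 in chow livers. The 3 ranges were nearly the same. The differences were 0.02 for HFD against chow (95% interval -0.19 to 0.23), -0.12 for HFD+PE against HFD (-0.33 to 0.09) and -0.10 for HFD+PE against chow (-0.31 to 0.11), so the bounds for Fbp1 were narrow as well.

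The last step in the pathway needs a pair of proteins of the endoplasmic reticulum: Slc37a4 brings glucose phosphate in, and G6pc1, the catalytic subunit of glucose phosphatase, frees the glucose. Slc37a4 ran over 10.6 to 11.2 with a median of 10.85 in HFD+PE livers, over 10.5 to 11.1 with a median of 10.9 in HFD livers and over 10.6 to 10.9 with a median of 10.75 in chow livers. Its differences were 0.15 for HFD against chow (95% interval -0.14 to 0.44), 0.01 for HFD+PE against HFD (-0.28 to 0.30) and 0.16 for HFD+PE against chow (-0.13 to 0.45). The difference for HFD against chow was 0.245 without HFD 1 and 2, the lowest animal (exact permutation p 0.0317), and 0.095 without HFD 4. G6pc1 had 11.3, 11.8, 12.35, 12.5 and 11.5 in HFD+PE livers, 11.3, 11.9, 11.1, 12.2 and 11.3 in HFD livers, and 12.3, 10.8, 12.65, 11.2 and 11.6 in chow livers. The chow animals alone spanned 1.85 log2 units and covered the range of both other groups. The means were 11.89 ± 0.52 in HFD+PE, 11.56 ± 0.47 in HFD and 11.71 ± 0.76 in chow (SD, n = 5 each). The differences were -0.15 for HFD against chow (-0.84 to 0.54), 0.33 for HFD+PE against HFD (-0.36 to 1.02) and 0.18 for HFD+PE against chow (-0.51 to 0.87). As folds these intervals reach from 0.56 to 2.03, so changes of G6pc1 within those bounds were not excluded.

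The platform annotation gives the G6pc1 probe set 3 symbols, Psme3, Aoc3 and G6pc1, and it was named here through its RefSeq transcript accession. Of the 3 other probe sets with the same symbols, 1 followed it closely, with a Pearson r of 0.960 over deviations of 15 animals from their group means and a range of 7.6 to 10.35, and the other two did so less (0.279 and 0.233). The differences of that probe set were -0.09 for HFD against chow, 0.42 for HFD+PE against HFD and 0.33 for HFD+PE against chow, of the same sign as those of the brightest. Those of the other two were 0.08 and 0.26 for HFD against chow, -0.09 and -0.03 for HFD+PE against HFD, and -0.01 and 0.23 for HFD+PE against chow, so in the first and the second comparison their signs were opposite. The wide spread between animals was thus read by 2 probe sets; both were on the same arrays, so they share each animal's RNA.

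Inside diet groups the pooled SD between animals was 0.70 for Pfkfb1, 0.60 for G6pc1, 0.35 for Pklr and 0.35 for Gckr, beside a median of 0.168 over all genes. These lie at the 99.1, 98.6, 94.1 and 93.8 percentiles of the 14275 genes. The pooled values hide unequal groups. For Pfkfb1 the SD was 1.03 in HFD+PE, 0.44 in HFD and 0.46 in chow, and for G6pc1 0.52, 0.47 and 0.76 in the same order. Pklr had 0.52, 0.11 and 0.30, so its spread in HFD was below the median of all genes. Slc37a4 and Pc had 0.23 each, Slc2a2 0.18, Fbp1 0.16 and Pck1 0.10, the last at the 7.68 percentile. Pck1 and G6pc1, both known as hormone targets, thus lay near opposite ends of the range. The share of a gene's variance that lay between the diet groups was 28.5% for Slc2a2, 28.0% for Pc, 26.9% for Pck1 and 20.4% for Pfkfb1, and 12.3% or less for the other 5. For every member, most of the variance was between animals of 1 diet, a part that also holds array noise and rounding. These shares were not computed for all genes, and some variance lies between groups even without a diet effect, so they are a description only.

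**Figure D3:**
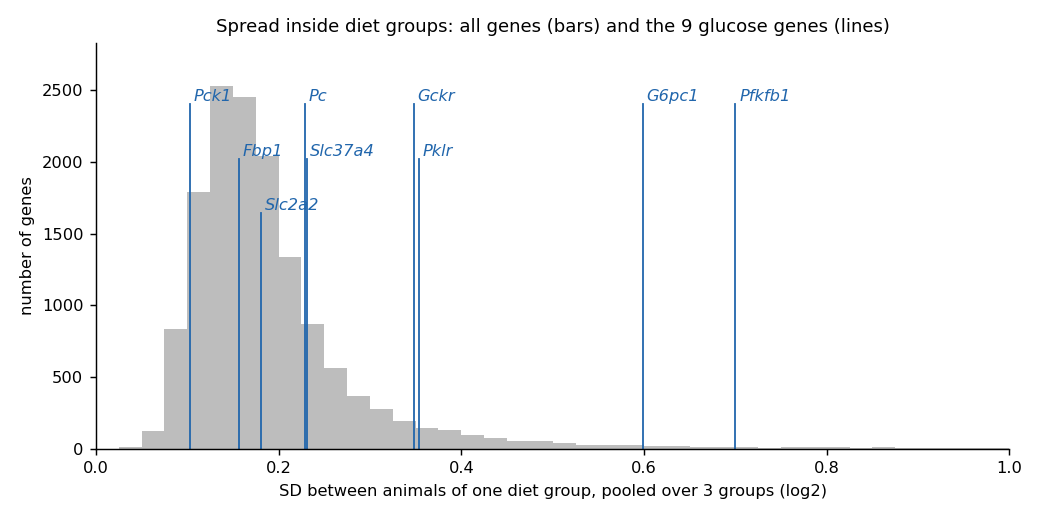
Number of genes (bars, 14275 in all) by the SD between animals of a diet group, pooled over the 3 groups (log2), with the 9 glucose genes marked by lines. Pck1 is at the low end at 0.10, and G6pc1 at 0.60 and Pfkfb1 at 0.70 lie far to the right of the median of 0.168.

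Whether members varied together was asked with the deviations of 15 animals from their group means, over 36 pairs of members. After Benjamini-Hochberg adjustment 0 of 36 pairs passed a permutation test of 100000 resamples, and 8 had an unadjusted p under 0.05. The highest were Fbp1 with Slc2a2 (Pearson r 0.66, Spearman rho 0.57, permutation p 0.00748, adjusted 0.150) and Slc2a2 with Slc37a4 (Pearson r 0.64). Neither was present in every group: over 5 animals each, r was 0.925 within HFD+PE, 0.663 within HFD and -0.04 within chow for Fbp1 with Slc2a2, and 0.686, 0.719 and 0.129 in the same order for Slc2a2 with Slc37a4. Without the 2 animals farthest from the median of Fbp1, r for Fbp1 with Slc2a2 was 0.467, and among the arrays with low hybridization controls (12 animals) it was 0.537. Gckr ran against Slc37a4 (Pearson r -0.62), at -0.738 within HFD+PE and -0.958 within HFD but 0.736 within chow, each over 5 animals, so the pooled value did not describe every group. Without HFD 1 and 2, 1 pair passed, Pfkfb1 with Slc37a4 (Pearson r 0.770, adjusted permutation p 0.0407), but not by Spearman rho (adjusted permutation p 0.106). Over all 15 animals the Pearson r of this pair was 0.459 (adjusted permutation p 0.276). It was 0.255 without HFD+PE 1 and 0.299 without HFD+PE 6, so the pass depended on which animal was left out.

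The members' deviations were also set against 6 measures of the samples (54 relations, chosen after the data had been seen). Slc37a4 followed the mean of the pericentral markers (Pearson r 0.769, Spearman rho 0.817, permutation p 0.00084, adjusted 0.0454, and r 0.742 without the 2 farthest animals), the only relation of the 54 to pass. Among the 10 animals whose arrays all had low hybridization controls, r was 0.938. Slc37a4 also rose with the mean of 8 periportal hepatocyte markers, though this did not pass. That Pearson r was 0.587 (adjusted permutation p 0.244), and 0.691 among those 10 animals, so the direction was not particular to the pericentral list. By adjusted permutation p, the relation next to the pericentral one was that of Fbp1. It was with the difference between the 3' and 5' GAPDH control probe sets, a sign of RNA quality (Pearson r -0.731, adjusted permutation p 0.0564, and r -0.631 among those 10 animals). That difference was 2.4 to 3.4 in HFD+PE livers, 2.1 to 3.2 in HFD livers and 2.15 to 3.2 in chow livers.

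By a rule that took the highest Pearson r of deviations over 15 animals, the genes most like the 3 members of widest spread were Ankrd33b (0.901) and Qsox2 (0.893) for Pfkfb1, Thumpd3 (0.877) and Ears2 (0.864) for G6pc1, and Fam220a (0.912) and Ssx2ip (0.894) for Pklr. These r values are the highest among all other genes, come from the same arrays, and are given as a description. Qsox2, Thumpd3 and Ears2 moved over narrow ranges, 6.3 to 6.8, 7.0 to 7.4 and 6.6 to 6.9, which are few steps of the rounded values.

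The other genes of glucose metabolism showed no passing change either. Of 121 further genes on 7 lists, 111 were measured, and limma called 0 in each comparison at an adjusted p of 0.05, as for all genes. With unadjusted p under 0.05 there were 11 in HFD against chow, 4 in HFD+PE against HFD and 13 in HFD+PE against chow, or 9.91%, 3.60% and 11.7% of them, beside 7.67%, 2.7% and 11.2% of all genes. Their median differences were -0.02, -0.01 and 0.01. The other 10 were not analysed here. In the genes named next, chosen by the smallest unadjusted p within each list, 0 passed the adjusted threshold.

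Among regulators of glucose genes, the glucocorticoid receptor gene Nr3c1 averaged 9.25 ± 0.23 in HFD+PE, 9.64 ± 0.15 in HFD and 9.21 ± 0.11 in chow (SD, n = 5 each). HFD and chow differed by 0.43 (SE 0.11, limma adjusted p 0.406) and did not overlap, as for 0.525% of all genes in this comparison. The gene was named for its small p, so the lack of overlap is a description only. How many of the 111 listed genes did not overlap was not counted. HFD+PE differed from HFD by -0.39 (SE 0.11, limma adjusted p 0.993), and these comparisons share the HFD animals. Foxa3, a forkhead factor of hepatocytes, averaged 7.40 ± 0.48 in HFD+PE and 6.44 ± 0.31 in chow, a difference of 0.96 (SE 0.24, limma adjusted p 0.139). Srebf1, which encodes the lipogenic factor that insulin induces, differed by 0.76 for HFD against chow and 0.55 for HFD+PE against chow (limma adjusted p 0.562 and 0.447). Cebpa, a factor of the differentiated hepatocyte, differed by 0.52 for HFD against chow and by -0.43 for HFD+PE against HFD. Ppargc1b, a coactivator, differed by -0.39 for HFD+PE against HFD and by -0.43 for HFD+PE against chow.

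Among hexokinases and hexose transporters, Slc2a9, a transporter of urate and hexoses, averaged 7.52 ± 0.16 in HFD+PE, 7.19 ± 0.21 in HFD and 7.09 ± 0.12 in chow (SD, n = 5 each). HFD+PE and chow did not overlap, as for 1.44% of all genes in this comparison, with a difference of 0.43 (SE 0.11, limma adjusted p 0.130). Slc2a4, the insulin-sensitive transporter of muscle and fat, differed by 0.25 for HFD+PE against chow, also without overlap (limma adjusted p 0.357), at levels of 4.1 to 4.5 near the low end of the array. Of the 9 measured members of that list, 8 had a higher mean in HFD+PE than in chow, beside 51.1% of all genes. In HFD+PE against HFD 7 were higher and 2 lower, and in HFD against chow 5 were higher and 4 lower. For HFD+PE against chow, Slc2a8 (0.01), Hk2 (0.07), Slc2a3 (0.07) and Slc5a1 (0.08) differed by less than the rounding step of 0.1. In that comparison regulators had 15 higher and 15 lower, and glycogen genes 5 and 6. Other gluconeogenic and shuttle enzymes had 12 and 7, pyruvate and lactate genes 10 and 3, and the pentose phosphate pathway 2 and 5. The others named by the rule were Hk1, Slc2a1 and Slc2a8, with differences between -0.12 and 0.19 over the 3 comparisons.

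Of the 18 measured genes of the glycolytic list, 15 had a lower mean in HFD than in chow, beside 46.7% of all genes. The median difference was -0.06, with 0 passing, and Gpi, Aldoa, Pfkl, Pfkm and Pfkfb3 differed by only -0.03 to -0.02. The list had 8 higher and 9 lower in HFD+PE against HFD, and 5 higher and 11 lower in HFD+PE against chow. In HFD against chow, regulators had 15 higher and 15 lower, other gluconeogenic and shuttle enzymes 10 and 9, and glycogen genes 5 and 6. Pyruvate and lactate genes had 9 and 5, and the pentose phosphate pathway 1 and 5. A shift of a whole list was not tested. Tpi1, triosephosphate isomerase, differed by -0.30 for HFD+PE against chow and by -0.16 for HFD+PE against HFD. Pfkp, the platelet form of phosphofructokinase, differed by -0.35 for HFD+PE against chow and by -0.12 for HFD+PE against HFD. Pkm, the pyruvate kinase of other tissues, differed by -0.25 for HFD+PE against chow and by -0.19 for HFD against chow. For HFD against chow, Pfkfb4 differed by -0.31 and Pgam1 by -0.18, and Pfkfb3 differed by 0.09 for HFD+PE against HFD. Pkm and Pfkp are also expressed by cells other than hepatocytes, and the macrophage marker mean was lower in HFD+PE than in chow livers, as given above; its part in these differences was not tested.

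Among the other gluconeogenic and shuttle enzymes, Sds, the serine dehydratase of fasted liver, ran over 8.0 to 11.7 in HFD+PE livers and 10.2 to 11.2 in HFD livers, a difference of -1.03 (SE 0.52, limma adjusted p 0.993). Pck2, the mitochondrial counterpart of Pck1, differed by -0.29 for HFD against chow (SE 0.10, limma adjusted p 0.562). Aqp9, the channel through which hepatocytes take up glycerol, differed by 0.32 for HFD+PE against chow (SE 0.11, limma adjusted p 0.257) and by 0.16 for HFD against chow. Gpd1, Gpd2, Got1 and Slc25a1 had differences between -0.28 and 0.47 where the rule named them.

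In pyruvate entry and lactate handling, Pdk2, a kinase that turns off pyruvate dehydrogenase, differed by 0.24 for HFD against chow (SE 0.09, limma adjusted p 0.567) and by -0.13 for HFD+PE against HFD. Slc16a7, a monocarboxylate transporter, differed by 0.27 for HFD against chow and by 0.36 for HFD+PE against chow. Pdk3 differed by -0.14 for HFD against chow and -0.21 for HFD+PE against chow, and Pdp2, Slc16a1 and Mpc2 by 0.22 to 0.36 where named. Among glycogen genes, Ppp1r3b, which targets phosphatase to glycogen in liver, averaged 10.70 ± 0.52 in HFD+PE, 11.28 ± 0.77 in HFD and 10.37 ± 0.39 in chow (SD, n = 5 each). It differed by 0.91 for HFD against chow (SE 0.32, limma adjusted p 0.562) and by -0.58 for HFD+PE against HFD (limma adjusted p 0.993). Gbe1, the branching enzyme, differed by 0.27 for HFD against chow and -0.15 for HFD+PE against HFD, and Phkb, Phkg2, Gsk3b and Gyg1 had differences between -0.21 and 0.27 over the 3 comparisons. In the pentose phosphate pathway, Pgd differed by -0.55 for HFD+PE against chow (SE 0.17, limma adjusted p 0.235), -0.29 for HFD+PE against HFD and -0.26 for HFD against chow, while Rpia, Taldo1 and Tkt stayed between -0.16 and 0.10.

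**Figure D4:**
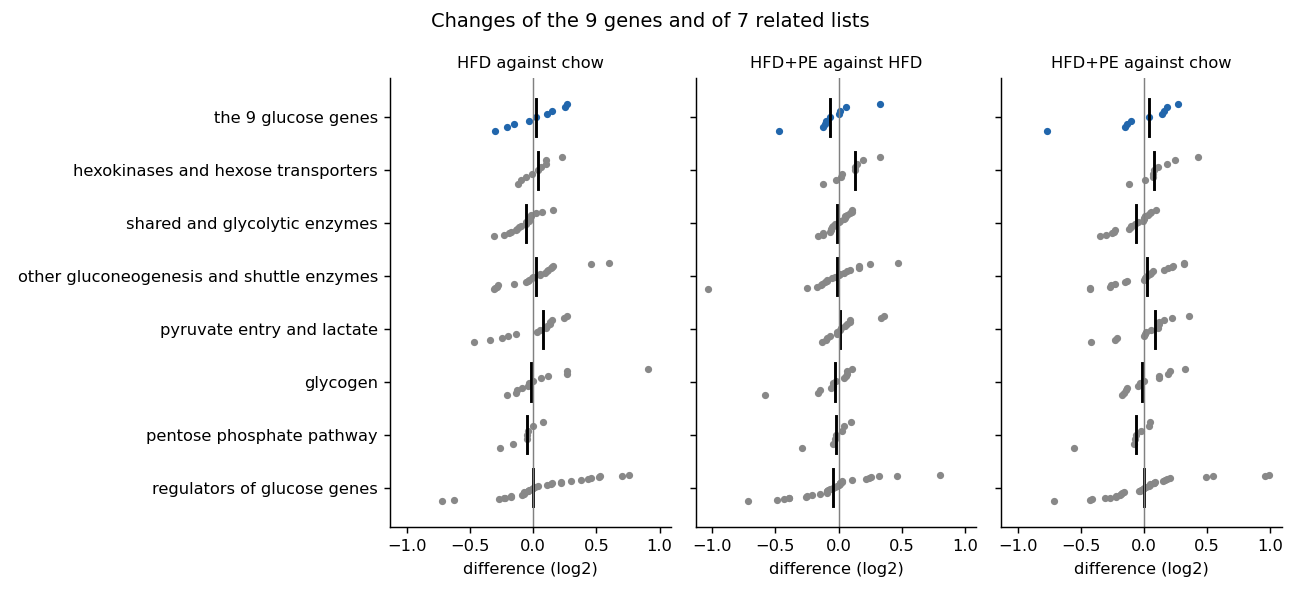
Difference between diet groups (log2) of each measured gene on 7 lists of glucose metabolism (grey points) and of the 9 glucose genes (blue points), with the median of each list (black bars), for HFD minus chow, HFD+PE minus HFD and HFD+PE minus chow. List medians stay between -0.07 and 0.13, and 0 of the genes passed the adjusted threshold.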

How the data were processed

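Liver RNA of 18 rats' arrays was read as 1 table of log2 signals that the authors deposited; per the submitters' processing notes they used Affymetrix Expression Console and RMA, which corrects background, quantile-normalizes arrays and summarizes probes, and the sources used here give no versions. The 31099 probe sets ran from 2.2 to 15, and all 559782 values were multiples of 0.1 (tolerance 1e-06 after multiplying by 10). Arrays have no read depth, and precision is limited by the rounding and by the number of animals. Of the probe sets, 57 were controls and were not tested. Of the rest 20826 had 1 symbol, 436 several and 9780 none in the platform annotation; 80 of the 436, G6pc1's among them, were named through their accession in RefSeq, a step added after the annotation had been read. This gave 14275 genes, of which 4544 had more than 1 probe set, and no filter on dim genes was applied.

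Of 153 pairs of arrays, 3 had 0 probe sets over 2 log2 units apart, against 18 to 109 in the other 150; each was averaged, which left 15 animals, although the labels call all 18 biological replicates. Groups were taken from the titles. limma 3.58.1 in R 4.3.3 (statmod 1.5.0) fitted 1 mean per group with eBayes; all tests were two-sided, adjusted by Benjamini-Hochberg over 14275 genes in each comparison, with a threshold of 0.05. Exact permutation tests (252 arrangements) and correlations used Python 3.11.15, numpy 2.4.6, pandas 2.3.3 and scipy 1.17.1. The fit was tested on simulated data. Deviations of same-numbered arrays of different groups had Pearson r of -0.306 to 0.189 over 18 pairs, 4 over 0.1. Arrays of different numbers were not compared in this way, so these values cannot settle whether the numbers pair animals. The main fit took the animals as unpaired. Within the lists, up to 3 genes with the smallest p per comparison were named, and for the 3 members of widest spread the 2 most alike genes. Alternatives are given in the closing section. The members, lists and rules were chosen with earlier results of these data known.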

Additional observations from a re-analysis of the deposited data

How the results depend on the processing

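Under 25 alternatives limma called 0 of the 9 genes in any comparison; their smallest adjusted p was 0.361 for HFD against chow, 0.974 for HFD+PE against HFD and 0.165 for HFD+PE against chow. Of 675 member differences 617 kept their sign, 32, of 10 differences of at most 0.30 in size, changed it, 1 became 0, and 25 were of Pc for HFD+PE against HFD, which was 0 and ranged over -0.06 to 0.13; 0 passed, and the cause was not tested. With 18 arrays as separate animals, and also with the replicate block, Fbp1 was -0.017 for HFD against chow and Pklr 0.033 for HFD+PE against HFD. With the hybridization control set as a covariate, HFD against chow was -0.096 for Pklr, -0.011 for Fbp1 and 0.18 for Pfkfb1, HFD+PE against HFD was 0.053 for Pklr and -0.047 for Slc37a4, and HFD+PE against chow was -0.042 for Pklr. Among arrays with low controls, HFD against chow was -0.087 for Pklr and -0.04 for Fbp1, HFD+PE against HFD was 0.07 for Pklr and -0.055 for Slc37a4, and HFD+PE against chow was -0.017 for Pklr. Leaving out each animal in turn, HFD against chow ranged over -0.015 to 0.085 for Fbp1, -0.378 to 0.085 for G6pc1 and -0.05 to 0.025 for Pck1; HFD+PE against HFD over -0.065 to 0.225 for Gckr, -0.255 to 0.0825 for Pklr and -0.085 to 0.0825 for Slc37a4; and HFD+PE against chow over -0.0475 to 0.415 for G6pc1 and -0.145 to 0.193 for Pklr.

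Over all genes, HFD+PE against chow had 149 calls with 18 arrays as separate animals, 124 with the replicate block, 39 with animals as random blocks and 3 (A2m, Cav1 and Nnmt) among arrays with low controls, against 0; the first and the replicate-block fits count 3 alike pairs as 6 animals, and the random-block fit does not. Without 1 animal it had 0 to 27: 27 without HFD+PE 3 and 4, 17 without HFD+PE 1, 1 without HFD+PE 2 (Tmbim7) and 1 without chow 5 (Aldh1a1). HFD against chow had 1 call among arrays with low controls (Cav1) and 0 to 1 without 1 animal (Hsph1, without HFD 1 and 2), and HFD+PE against HFD had 0 to 2 (Acly and Scd, without HFD+PE 3 and 4); these few were named after their values were seen. The F test had 26 calls with 18 arrays, 31 with the replicate block, 3 among arrays with low controls and 0 to 13 without 1 animal. Pairs of members that passed numbered 0 to 1 without 1 animal. Of 27 member differences, those with an exact p under 0.05 numbered 0, 1 with 18 arrays (Pck1, HFD+PE against chow) and 0 to 3 without 1 animal: 3 without HFD 1 and 2 (Gckr, Slc2a2 and Slc37a4, HFD against chow) and 2 without HFD+PE 1 (Pck1 and Pfkfb1, HFD+PE against chow).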
